A study of Mus musculus with 5 samples.

Results

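One array of lung RNA, from A-J mice that had interleukin-13 (IL-13) instilled into the trachea and with the title number 18, named IL-13 18 here, was set against both arrays from mice given saline, saline 6 and saline 48. These are 3 of the 5 arrays measured. IL-13 18 lay beyond both saline arrays for 7005 of the 12422 probe sets that are not controls, above both for 4192 and below both for 2813, and the members described in detail are those at least 2-fold beyond both. The other 2 arrays came from A-J mice given IL-13 and are named IL-13 6 and IL-13 48. All 5 arrays share the strain, the route into the trachea and total RNA from a source given as murine lung, and each combination of treatment and number is 1 array. The numbers 6, 18 and 48 carry no unit in the labels, and no saline array carries 18, so treatment and number cannot be told apart for IL-13 18. Nothing says whether an array stands for 1 animal or a pool, or whether animals differed between arrays. The p-values therefore reflect the spread among these 5 arrays alone, which may be technical. That spread is taken between saline 6 and saline 48 and between IL-13 6 and IL-13 48. No combination of treatment and number has a replicate, so differences between numbers count as spread.

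T helper 2 cells and innate lymphoid cells release IL-13. This cytokine binds a receptor made of IL-4Rα and IL-13Rα1, whose Janus kinases phosphorylate the transcription factor STAT6. In airway epithelium this pathway drives the formation of goblet cells, which store and secrete mucins, and in macrophages and epithelium it induces chitinase-like proteins, chemokines and matrix proteins. The series addresses goblet cells, the source of excess airway mucus in asthma and in mouse models of it.

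The values are intensities on a linear scale, scaled alike on the 5 arrays. A value under 55.28, the pooled 20th percentile, was set to that floor before log2 was taken, and a fold that rests on the floor is written with "at least". Where 2 values are given with saline, saline 6 comes first and saline 48 second. Median intensity ran from 324.4 to 358.4 and the share of probe sets at the floor from 18.8% to 21.3%. The tissue label was checked against markers of cell types. Markers of club cells (Scgb1a1, 22020 to 31020, and Cyp2f2, 9162 to 12590) and of ciliated cells (Foxj1, 882.7 to 1175) were bright on all 5 arrays, as were transcripts of thyroid (Tg, 13170 to 25520), skeletal muscle (Acta1, 11570 to 26560), squamous epithelium (Krt4, 15200 to 20690) and fat (Adipoq, 4289 to 9744). The surfactant gene Sftpb, a defining transcript of lung, read 2114 on IL-13 18 and from 67.59 to 231.8 on the other 4 arrays, while the collectin gene Sftpd and the markers of club and ciliated cells did not share that pattern. Saline 6 stood apart from the rest by its salivary gland transcripts, with Smr3a, a salivary peptide, at 22980 on saline 6 and from 12.19 to 28.65 on the other arrays. Some heart transcripts were brighter on saline 6 and IL-13 18 than on the other 3 arrays. The atrial myosin gene Myl7 read 7547 on saline 6 and 129.9 on saline 48. On IL-13 18 it read 3323, against 224.8 and 192.3 on IL-13 6 and IL-13 48. In RNA from a whole sample, fewer cells of a type and less RNA per cell cannot be told apart. The part of these tissue differences in the results that follow was not tested.

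**Figure D1:**
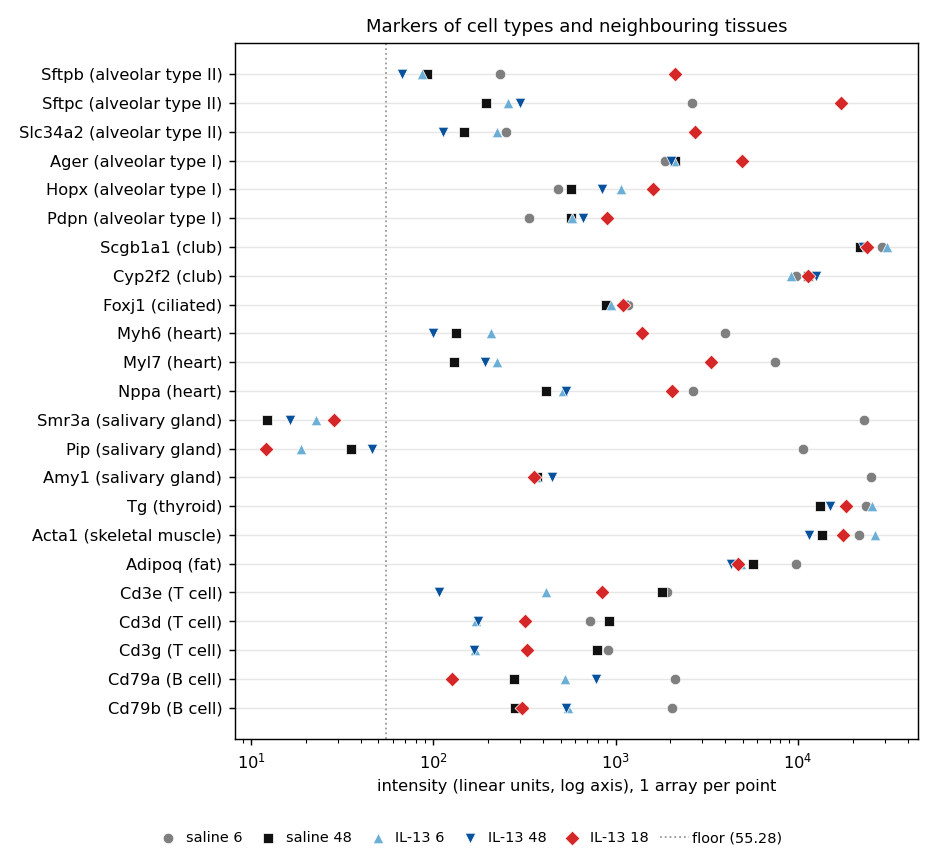
Intensity (log axis) of markers of lung cell types and of neighbouring tissues, with 1 point per array and the floor of 55.28 as a dotted line. Sftpb, Sftpc and Slc34a2 are brightest on IL-13 18, the heart transcripts on saline 6 and IL-13 18, and Smr3a, Pip and Amy1 on saline 6.

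IL-13 18 read at least 2-fold above both saline arrays, with its own value above the pooled median of 343.0, for 74 probe sets of 66 named genes (0.596% of all probe sets). It read at least 2-fold below both, with both saline values above that median, for 42 probe sets of 38 named genes (0.338%). Lying above both saline arrays by any margin held for 33.7% of probe sets and lying below both for 22.6%. Chil3, Slc34a2, Chil1, Clca1 and Sftpb had the largest folds of the higher group, and Crat, Znrf1, Prp2 and Tgfb1 were among the largest of the lower one. The median fold from the nearer saline array was 2.55 for the higher members, with 19.6 as the highest, and 2.45 for the lower members, with 7.14 as the highest. Leaving out saline 6 gave 151 higher and 113 lower probe sets, and leaving out saline 48 gave 265 and 271.

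No probe set passed limma, a linear model fitted to 8064 probe sets over all 5 arrays, after Benjamini-Hochberg adjustment (0 higher and 0 lower at 0.05, lowest adjusted p 0.332). Unadjusted limma p-values under 0.05 were found for 287 probe sets in the higher direction (3.56%) and 199 in the lower one (2.47%). A single array against 2 allows no exact one-sided permutation p below 0.333. All values below are therefore intensities and differences that did not pass the test, unless an alternative is named. Just inside the 2-fold limit, Srpr read 462.9 on IL-13 18 against 207.2 and 227.9 on saline 6 and saline 48 (2.03-fold from the nearer), and Snw1 read 195.6 against 392.0 and 446.9. Just outside it, Bcl2l10 read 715.1 against 289.3 and 357.9, and Nsg2 read 199.5 against 398.8 and 556.9.

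**Figure D2:**
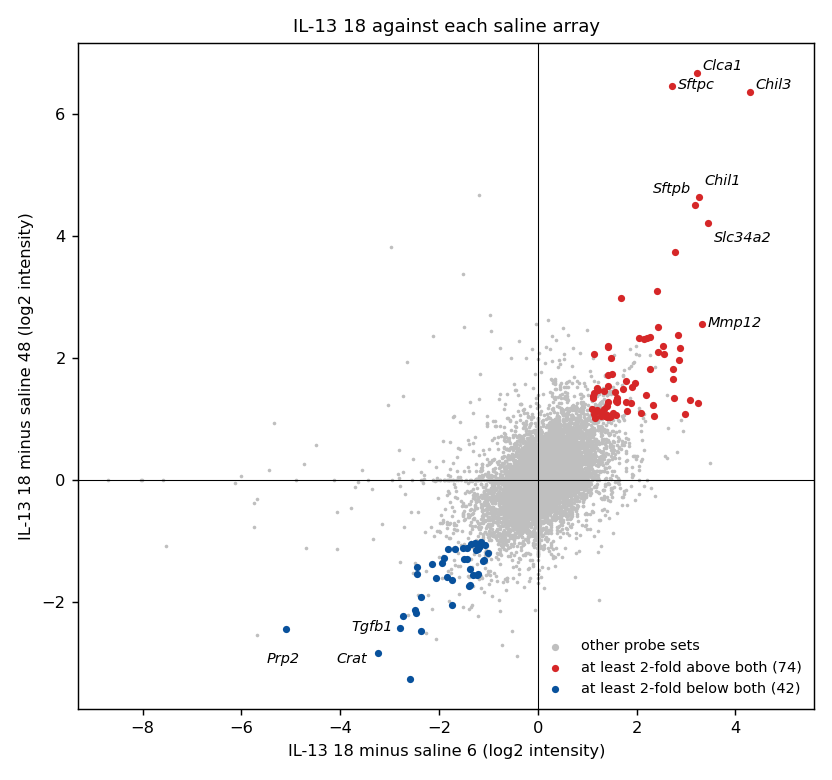
Log2 difference of IL-13 18 from saline 6 (horizontal axis) and from saline 48 (vertical axis), 1 point per probe set. The 74 probe sets at least 2-fold above both saline arrays lie at the upper right and the 42 at least 2-fold below both at the lower left, with Chil3, Clca1 and Sftpc furthest out at the top.

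Genes of goblet cells and mucus mostly read higher on IL-13 18. Of 18 measured genes of that list, 13 lay above both saline arrays and 1, Foxa2, below both, where the same held for 34.3% and 25.1% of all 8251 genes. At least 2-fold above both were 4 of the 18 (0.654% of all genes), Clca1, Fcgbp, Agr2 and Itln1, and none was 2-fold below. The median log2 difference from the mean of saline was 0.46 for IL-13 18, 0.56 for IL-13 6 and 0.42 for IL-13 48, against 0.00, 0.00 and 0.01 over all genes. The list was chosen with these data known, the 3 medians share the saline arrays, and no set test was run.

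Clca1 encodes a secreted protein of goblet cells. It read 3117 on saline 6 and 284.7 on saline 48, then 29080 on IL-13 18 against 21500 and 22010 on IL-13 6 and IL-13 48. The 3 IL-13 arrays lay close together and above both saline arrays, which lay far apart from each other. IL-13 18 was 9.33-fold above saline 6 and 102-fold above saline 48, a log2 difference of 4.95 (SE 1.33, limma adjusted p 0.708). Those values come from a probe set chosen under relaxed rules, and the other probe set of the gene read 45.74 and 57.05 with saline, 156.8 on IL-13 18, and 112.4 and 24.57 on IL-13 6 and IL-13 48. Fcgbp, a mucus protein that binds the Fc part of IgG, read 667.6 on saline 6 and 835.9 on saline 48, then 3852 on IL-13 18 against 1996 and 2704 on IL-13 6 and IL-13 48. IL-13 18 was the highest array, every IL-13 array exceeded both saline arrays, and the second probe set gave the same order (895.0, 1135, 4858, 2961 and 3193). The log2 difference was 2.37 on the first set (SE 0.32, limma adjusted p 0.332) and 2.27 on the second.

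Agr2, a disulfide isomerase that folds mucins, read 1944 on saline 6 and 2646 on saline 48, then 9370 on IL-13 18 against 5156 and 4339 on IL-13 6 and IL-13 48 on its bright probe set. IL-13 18 was highest by a clear margin there (3.54-fold above the nearer saline array), while its other probe sets were dim on every array. Itln1, a lectin secreted by goblet cells, read 4294 on saline 6 and 6078 on saline 48, then 14790 on IL-13 18 against 9208 and 10930 on IL-13 6 and IL-13 48. Again the IL-13 arrays did not overlap the saline arrays. Spdef, the transcription factor that directs goblet cell differentiation, read 38.42 on saline 6 and 242.3 on saline 48, then 425.6 on IL-13 18 against 427.3 and 229.0 on IL-13 6 and IL-13 48. Here IL-13 48 lay within the saline range, and the saline arrays lay further apart than IL-13 18 lay from saline 48 (1.76-fold). Muc5ac, the main secreted mucin of goblet cells, read at most 29.8 on any array, under the floor, and gave no fold. The trefoil gene Tff2 and the secretory protein gene Bpifb1, both bright, had IL-13 18 between the saline arrays, at 12520 and 11400.

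Chil3, a chitinase-like protein of alternatively activated macrophages, gave the largest fold of all. It read 387.8 on saline 6 and 92.0 on saline 48, then 7595 on IL-13 18 against 2566 and 3182 on IL-13 6 and IL-13 48. The 3 IL-13 arrays lay well above both saline arrays, with IL-13 18 highest. IL-13 18 was 19.6-fold above saline 6 and 82.6-fold above saline 48 (log2 difference 5.33, SE 0.83, limma adjusted p 0.376). Against IL-13 6 and IL-13 48 the log2 difference was 1.41 (SE 0.83). The 250 bases before its start are printed because this gene stands furthest from saline. They lie at chr3:106167565-106167814 on the minus strand of the RefSeq assembly GRCm38.p6, are written 5′ to 3′ in the direction of the gene, and hold neither the STAT6 motif (TTC and GAA with 4 bases between) nor the other 2 motifs searched, so no letters are in capitals.
Chil3: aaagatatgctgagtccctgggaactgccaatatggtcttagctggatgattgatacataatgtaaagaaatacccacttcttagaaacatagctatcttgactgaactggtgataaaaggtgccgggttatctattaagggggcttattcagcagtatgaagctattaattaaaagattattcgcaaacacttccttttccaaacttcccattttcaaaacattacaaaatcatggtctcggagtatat

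Among 26 measured genes known to respond to IL-4 or IL-13, 15 read above and 3 below both saline arrays (34.3% and 25.1% of all genes). At least 2-fold above both were 3, Chil3, Mmp12 and Sprr2b, and 1 was 2-fold below, Tgfb1 (0.654% and 0.388% of all genes). Without saline 6 those counts were 7 and 2, and without saline 48 they were 4 and 5. Its median log2 difference was 0.43 for IL-13 18, 0.37 for IL-13 6 and -0.12 for IL-13 48. Postn, a matricellular protein, read 3715 and 3623 on saline 6 and saline 48, 7259 on IL-13 18, and 6600 and 6070 on IL-13 6 and IL-13 48, with no overlap of treatments and a fold of 1.95 that falls just short of the limit. The eosinophil chemokine Ccl11 read 211.0 and 226.8 with saline, 393.8 on IL-13 18, and 1399 and 353.1 on IL-13 6 and IL-13 48. All 3 IL-13 arrays lay above saline, and IL-13 18 lay much nearer IL-13 48 than IL-13 6. The lipoxygenase gene Alox15 followed the same order, at 631.6 and 440.9 with saline, 1041 on IL-13 18, and 2530 and 712.3 on IL-13 6 and IL-13 48. Arg1, the arginase of alternatively activated macrophages, was high on 1 array and read 313.0 and 478.7 with saline, 379.7 on IL-13 18, and 1283 and 285.7 on IL-13 6 and IL-13 48. Its value on IL-13 18 lay between the saline arrays.

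Of 18 measured ligands, receptors and signalling genes of IL-4 and IL-13, 2 lay above both saline arrays, Socs3 and Cish, and 6 below both. Over all genes, 34.3% lay above and 25.1% below both. At least 2-fold beyond in either direction were 0 of the 18 (2 below without saline 48). Over all genes, 0.654% were 2-fold above and 0.388% below. Their median log2 difference was -0.18 for IL-13 18 (-0.28 without saline 48 and -0.11 without saline 6), 0.00 for IL-13 6 and -0.26 for IL-13 48. Il4ra, the shared receptor chain, read 683.4 and 838.3 with saline, 573.0 on IL-13 18, and 599.2 and 545.1 on IL-13 6 and IL-13 48. The 3 IL-13 arrays lay below both saline arrays by small margins (1.19-fold for IL-13 18). Stat6 read 1385 and 2151 with saline and 1714 on IL-13 18, inside the saline range. Socs1, which inhibits Janus kinases, read 594.2 and 808.8 with saline, 467.1 on IL-13 18, and 421.9 and 411.1 on IL-13 6 and IL-13 48, with no overlap. The decoy receptor gene Il13ra2 lay under the floor on IL-13 18 and both saline arrays and read 75.94 and 56.92 on IL-13 6 and IL-13 48.

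Surfactant genes separated IL-13 18 from the other IL-13 arrays as well as from saline. Sftpc, a hydrophobic surfactant protein made by alveolar type II cells, read 2615 on saline 6 and 194.3 on saline 48, then 17180 on IL-13 18 against 257.2 and 300.5 on IL-13 6 and IL-13 48. IL-13 18 was far above every other array, and saline 6 was the next highest. The fold was 6.57 over saline 6 and 88.4 over saline 48 (log2 difference 4.59, SE 1.44, limma adjusted p 0.748), and the log2 difference from IL-13 6 and IL-13 48 was 5.95 (SE 1.44, adjusted p 1.000). Slc34a2, the phosphate transporter of type II cells, read 251.8 on saline 6 and 147.6 on saline 48, then 2730 on IL-13 18 against 224.3 and 112.9 on IL-13 6 and IL-13 48. The other 4 arrays ran from 112.9 to 251.8, and IL-13 18 stood 10.8-fold above the nearer saline array (log2 difference 3.82, SE 0.53, not passing limma).

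Sftpb, the other hydrophobic surfactant protein, read 231.8 on saline 6 and 92.43 on saline 48, then 2114 on IL-13 18 against 86.34 and 67.59 on IL-13 6 and IL-13 48. Both other IL-13 arrays lay below both saline arrays, but their values were dim, near the floor and not far from the 92.43 of saline 48. They do not show a change opposite to that on IL-13 18. IL-13 18 was 9.12-fold above saline 6 and 22.9-fold above saline 48 (log2 difference 3.85, SE 0.57, limma adjusted p 0.363). Its promoter is printed because it holds GCNCTNNAG, the core bound by NKX2-1, the lung transcription factor of surfactant genes, as a pair of overlapping matches on opposite strands in capitals. The 250 bases lie at chr6:72304360-72304609 on the plus strand (RefSeq, GRCm38.p6), and the matches begin 110 and 103 bases before the start.
Sftpb: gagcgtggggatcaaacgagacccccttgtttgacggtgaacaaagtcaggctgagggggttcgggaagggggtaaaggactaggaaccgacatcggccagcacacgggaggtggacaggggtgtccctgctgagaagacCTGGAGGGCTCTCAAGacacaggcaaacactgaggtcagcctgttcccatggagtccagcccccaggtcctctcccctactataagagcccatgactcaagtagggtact

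Over the list of alveolar type II and surfactant genes, 10 of 16 measured lay above both saline arrays and 1, the lipase gene Lpl, below both (34.3% and 25.1% of all genes). Those at least 2-fold above were Sftpc, Sftpb, Slc34a2 and Chil1, 4 of 16 (0.654% of all genes). All 4 were also at least 2-fold above both other IL-13 arrays. The median log2 difference was 0.44 for IL-13 18, 0.21 for IL-13 6 and -0.15 for IL-13 48. Chil1, a chitinase-like protein of epithelium and macrophages, read 318.0 on saline 6 and 122.6 on saline 48, then 3059 on IL-13 18 against 351.1 and 79.28 on IL-13 6 and IL-13 48. Only IL-13 18 stood apart for this gene (9.62-fold above the nearer saline array, limma adjusted p 0.683). Lpcat1, the acyltransferase that makes surfactant lipid, read 276.5 and 328.7 with saline, 640.3 on IL-13 18, and 515.7 and 399.2 on IL-13 6 and IL-13 48. Not all genes of the list followed: the collectin gene Sftpd read 121.1 and 133.3 with saline, 174.8 on IL-13 18, and 217.1 and 183.4 on IL-13 6 and IL-13 48, and the lysozyme gene Lyz2 had IL-13 18 (11240) between the saline arrays (10710 and 15060). The club cell marker Scgb1a1 read 23920 on IL-13 18, also between saline 6 (29140) and saline 48 (22020).

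Alveolar type I cells form the thin surface for gas exchange. All 9 measured genes of their list lay above both saline arrays on IL-13 18 (34.3% of all genes). At least 2-fold above were 4 of them, Sema3e, Emp2, Hopx and Ager (0.654% of all genes). The median log2 difference was 1.04 for IL-13 18 (0.93 without saline 6 and 1.40 without saline 48), 0.51 for IL-13 6 and 0.61 for IL-13 48. Ager, the receptor for advanced glycation end products on the basal side of type I cells, read 1872 on saline 6 and 2128 on saline 48, then 4928 on IL-13 18 against 2081 and 2019 on IL-13 6 and IL-13 48. The other IL-13 arrays lay inside the saline range, and IL-13 18 was 2.32-fold above it (log2 difference 1.30, SE 0.25, limma adjusted p 0.541). Hopx, a homeodomain cofactor, read 483.6 and 568.2 with saline, 1606 on IL-13 18, and 1077 and 841.9 on IL-13 6 and IL-13 48. For Hopx all 3 IL-13 arrays lay above saline. Emp2, a tetraspan membrane protein, read 689.0 and 408.0 with saline, 1847 on IL-13 18, and 756.5 and 772.2 on IL-13 6 and IL-13 48.

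Sema3e, a secreted guidance protein that signals through plexin D1, read 107.4 on saline 6 and 40.13 on saline 48, then 738.8 on IL-13 18 against 208.8 and 182.0 on IL-13 6 and IL-13 48. The treatments did not overlap, and IL-13 18 was 6.88-fold above saline 6 and at least 13.4-fold above saline 48, which lay under the floor (log2 difference 3.26, SE 0.44, limma adjusted p 0.332). Its promoter is shown because, among the members with a promoter to search, it has the highest fold of those whose window holds the STAT6 motif. The motif is in capitals, 204 bases before the start. It lies at chr5:14025026-14025275 on the plus strand (RefSeq, GRCm38.p6).
Sema3e: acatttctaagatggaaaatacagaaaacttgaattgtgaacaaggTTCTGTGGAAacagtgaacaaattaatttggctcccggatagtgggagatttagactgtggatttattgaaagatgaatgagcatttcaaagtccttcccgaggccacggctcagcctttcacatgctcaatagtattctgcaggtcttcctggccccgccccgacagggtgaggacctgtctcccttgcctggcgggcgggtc

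Both strands of the RefSeq promoters were searched for 3 motifs. The STAT6 motif was found in 8 of 67 promoters of the higher members (11.9%, of Capn9, Itgax, Lcn2, Mettl7a1, Sema3e and Septin4), in 1 of 45 promoters of the lower members (2.22%, Cd53), and in 5.85% of all 32851 promoters. GCNCTNNAG was found in 11.9% of the higher, 20% of the lower and 14.2% of all promoters. CACGTG, the E-box, was found in 2.99%, 6.67% and 6.02%. Promoters matched 56 of the 66 higher and 32 of the 38 lower genes. A match describes letters in a window and is not evidence of binding.

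**Figure D3:**
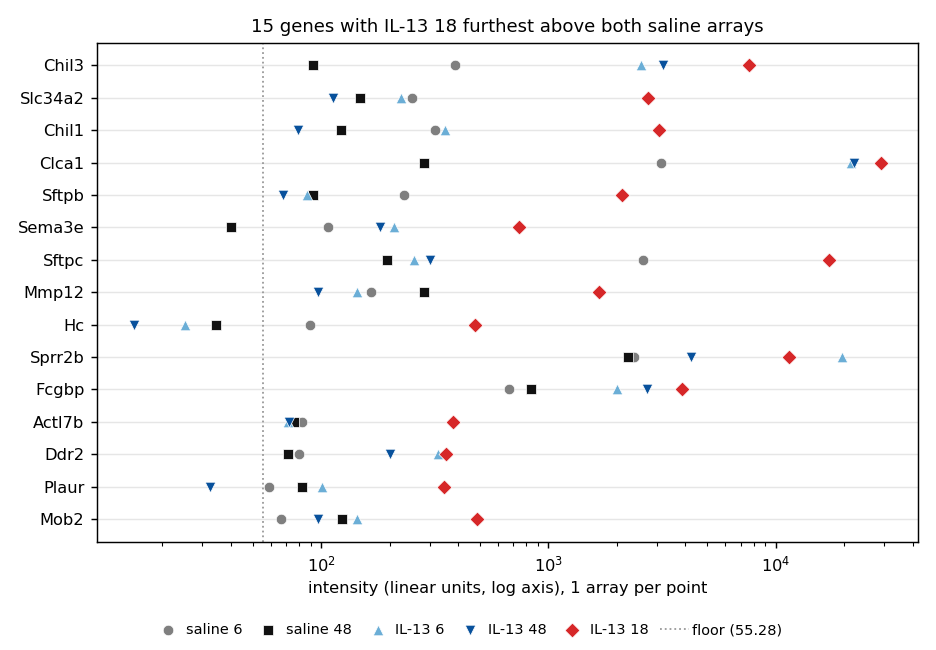
Intensity (log axis) on each array for the 15 genes with IL-13 18 furthest above both saline arrays, 1 point per array, sorted by the fold from the nearer saline array. IL-13 18 is the highest array for 14 of the 15, and for Sprr2b IL-13 6 reads higher (19620 against 11480).

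Of the 74 higher probe sets, 64 lay above all 4 other arrays and 26 at least 2-fold above all 4 (0.209% of all probe sets). Members were chosen for lying above both saline arrays, which in part fixed the 64. The share of all probe sets above all 4 by any margin was not counted. The gap between IL-13 18 and the other IL-13 arrays did not pass limma for any probe set (0 higher and 0 lower of 8064, lowest adjusted p 0.301), while 154 (1.91%) and 80 (0.992%) had an unadjusted p under 0.05. Beside the surfactant genes and Chil1, the matrix and macrophage gene Mmp12 belonged to this group. Mmp12, the elastase of macrophages, read 166.4 on saline 6 and 284.0 on saline 48, then 1669 on IL-13 18 against 143.9 and 96.76 on IL-13 6 and IL-13 48. IL-13 18 alone was high, and a second probe set had the same order of treatments (79.55, 75.82, 431.1, 67.73 and 27.92). The log2 difference from saline was 2.94 (SE 0.44, limma adjusted p 0.363), and from the other IL-13 arrays 3.82 (SE 0.44, adjusted p 0.338).

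Hc, complement component C5, read 88.86 on saline 6 and 34.26 on saline 48, then 473.9 on IL-13 18 against 25.21 and 15.05 on IL-13 6 and IL-13 48. On 3 of the arrays it lay under the floor, so IL-13 18 was the only array on which it was bright. Plaur, the urokinase receptor, read 58.76 and 82.70 with saline, 346.7 on IL-13 18, and 101.2 and 32.37 on IL-13 6 and IL-13 48. Actl7b, an actin-like protein known from testis, read 82.28 and 75.59 with saline, 378.7 on IL-13 18, and 71.28 and 72.10 on IL-13 6 and IL-13 48. Its 4 other arrays agreed to within a narrow band (log2 difference from saline 2.26, SE 0.25, limma adjusted p 0.332). Slc39a8, a zinc transporter, read 178.5 and 229.5 with saline, 694.0 on IL-13 18, and 180.1 and 157.8 on IL-13 6 and IL-13 48. Enpep, the aminopeptidase that cleaves angiotensin, read 540.9 and 666.5 with saline, 1648 on IL-13 18, and 358.2 and 542.4 on IL-13 6 and IL-13 48. For both, IL-13 18 was more than 2-fold above every other array on these probe sets, but a second set of Enpep read 785.1 and 692.1 with saline and 835.2 on IL-13 18.

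Some genes of endothelium and lung mesenchyme were highest on IL-13 18. Of 23 endothelial genes measured, 10 lay above and 3 below both saline arrays (43.5% and 13%, where all genes gave 34.3% and 25.1%). At least 2-fold above were 3 (6 without saline 6 and 3 without saline 48), where 0.654% of all genes were. The median log2 difference was 0.27 (0.14 without saline 48). Of the 23, 2 were at least 2-fold above all 4 other arrays (0.255% of all genes). Icam1, the adhesion molecule for leukocyte integrins, read 523.4 and 425.2 with saline, 1408 on IL-13 18, and 474.2 and 467.0 on IL-13 6 and IL-13 48. Cldn5, the tight junction protein of endothelium, read 655.3 and 602.9 with saline, 1761 on IL-13 18, and 756.3 and 541.8 on IL-13 6 and IL-13 48. For both genes the other 4 arrays were alike and IL-13 18 was 2.69-fold above the nearer saline array. Thbd, the thrombin receptor thrombomodulin, read 311.5 and 416.0 with saline, 893.6 on IL-13 18, and 485.6 and 439.2 on IL-13 6 and IL-13 48. A second probe set of Thbd read 442.5 and 399.1 with saline and 536.9 on IL-13 18. The defining endothelial markers differed among themselves. Pecam1, an adhesion molecule of endothelial junctions, read 252.3 and 159.7 with saline, 481.6 on IL-13 18, and 701.8 and 475.1 on IL-13 6 and IL-13 48, above saline on every IL-13 array. Kdr read 775.6 and 1174 with saline and 771.6 on IL-13 18, and Cdh5 read 2854 and 1725 with saline and 2725 on IL-13 18. Vcam1, another adhesion molecule, read 911.6 and 1608 with saline, 514.5 on IL-13 18, and 653.2 and 390.1 on IL-13 6 and IL-13 48.

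Smooth muscle and fibroblast genes had 17 of 22 above and 2 below both saline arrays (34.3% and 25.1% of all genes). At least 2-fold above were 2 of them (4 without saline 48), where 0.654% of all genes were. The median log2 difference was 0.39 for IL-13 18, 0.23 for IL-13 6 and 0.18 for IL-13 48. Inmt alone was at least 2-fold above all 4 other arrays. Inmt, a methyltransferase of lung tissue, read 1850 and 1698 with saline, 4702 on IL-13 18, and 741.8 and 764.7 on IL-13 6 and IL-13 48. IL-13 18 lay above both saline arrays while the other IL-13 arrays lay below both (log2 difference from those IL-13 arrays 2.64, SE 0.25, limma adjusted p 0.301). Tcf21, the transcription factor of lipid-bearing lung fibroblasts, read 175.0 and 189.1 with saline, 517.2 on IL-13 18, and 290.4 and 281.6 on IL-13 6 and IL-13 48, with all IL-13 arrays above saline. Contractile genes stayed near saline, with Acta2 at 6776 on IL-13 18 between 7142 and 6011. The collagen receptor gene Ddr2 read 79.94 and 71.16 with saline, 352.8 on IL-13 18, and 327.6 and 200.6 on IL-13 6 and IL-13 48, above saline on every IL-13 array.

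Transcripts of squamous epithelium and the cornified envelope formed another group of higher members. Of 28 measured genes of that list, 18 lay above both saline arrays and 0 below (34.3% and 25.1% of all genes). At least 2-fold above were 2, Sprr2b and Sprr2e (6 without saline 48), where 0.654% of all genes were. Over the list the median log2 difference was 0.46 for IL-13 18 (0.71 without saline 48 and 0.29 without saline 6), 0.57 for IL-13 6 and 0.41 for IL-13 48. Sprr2b, a small proline-rich protein of the cornified envelope, read 2390 and 2248 with saline, 11480 on IL-13 18, and 19620 and 4234 on IL-13 6 and IL-13 48. All IL-13 arrays lay above saline, with IL-13 6 highest. Sprr2e read 3368 and 2697 with saline, 7699 on IL-13 18, and 7444 and 3372 on IL-13 6 and IL-13 48, close to saline on the last. Both probe sets can take up related transcripts of the family. The aldehyde dehydrogenase gene Aldh1a7, of airway secretory cells, read 839.5 and 705.5 with saline, 2368 on IL-13 18, and 3226 and 1424 on IL-13 6 and IL-13 48. It was the only 1 of 13 measured club cell genes at least 2-fold above both saline arrays (2 without saline 48). Of the 13, 5 lay above and 2 below both, 38.5% and 15.4%, the first near the share of all genes. Sct, the gene of the hormone secretin, read 405.6 and 619.9 with saline, 1498 on IL-13 18, and 1514 and 1351 on IL-13 6 and IL-13 48 on one probe set. Its IL-13 arrays lay together above saline there, but another bright probe set of Sct read 4501 and 3069 with saline and 2644 on IL-13 18.

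Counted by 1 probe set per gene, the macrophage, chemokine and acute phase lists each held 1 gene at least 2-fold above both saline arrays. The neutrophil and eosinophil lists held 0. Over all genes, 0.654% lay 2-fold above and 0.388% 2-fold below. Lcn2, the iron-binding protein lipocalin, read 318.8 and 222.1 with saline, 890.4 on IL-13 18, and 377.1 and 111.9 on IL-13 6 and IL-13 48. Saa3, an acute phase protein of epithelium and macrophages, read 48.95 and 187.6 with saline, 465.6 on IL-13 18, and 239.8 and 58.69 on IL-13 6 and IL-13 48. In both, IL-13 18 was the highest array and IL-13 48 the lowest of the IL-13 arrays, but a second probe set of Lcn2 read 324.5 and 321.3 with saline and 400.3 on IL-13 18. Itgax, the integrin chain CD11c of alveolar macrophages and dendritic cells, read 393.6 and 334.8 with saline, 850.6 on IL-13 18, and 343.3 and 447.1 on IL-13 6 and IL-13 48. It was the only 1 of 27 measured macrophage and dendritic cell genes at least 2-fold above, and Mpeg1, the pore-forming protein of macrophages, the only one 2-fold below (5 without saline 48). Over that list 6 lay above and 9 below both saline arrays (22.2% and 33.3%), with a median log2 difference of -0.17 (-0.02 without saline 6). Of 22 chemokine genes, 12 lay above and 3 below both (54.5% and 13.6%, where all genes gave 34.3% and 25.1%), and only Cxcl5, a neutrophil attractant, was 2-fold above, with 0 below (without saline 48, 2 above and 3 below). Cxcl5 read 30.55 and 218.5 with saline, 524.8 on IL-13 18, and 62.68 and 749.9 on IL-13 6 and IL-13 48. Ccl5, the T cell chemokine, read 2859 on saline 6 and 320.0 on saline 48, then 36.60 on IL-13 18 against 730.6 and 538.5 on IL-13 6 and IL-13 48. It was lowest on IL-13 18, under the floor, and at least 5.79-fold below saline 48, which was itself under the median. Of 16 neutrophil genes, 8 lay above and 2 below (50% and 12.5%, median 0.34, and 0.16 without saline 6). Of 6 eosinophil genes, 1 lay above and 1 below, and the granule genes Epx and Prg2 lay under the floor on every array.

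**Figure D4:**
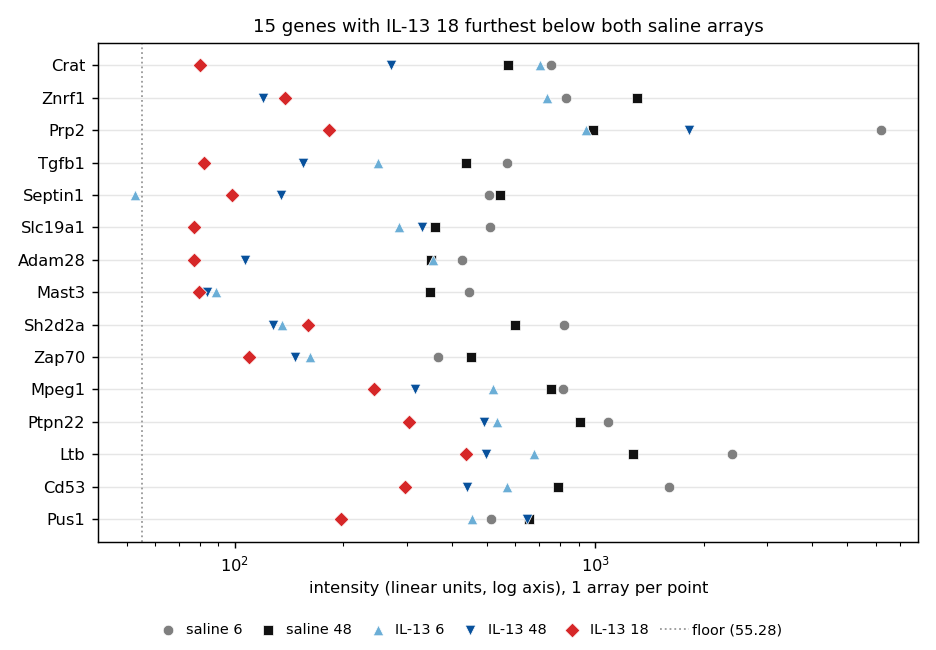
Intensity (log axis) on each array for the 15 genes with IL-13 18 furthest below both saline arrays, 1 point per array, sorted by the fold from the nearer saline array. Both saline values lie to the right of IL-13 18 for all 15, and for Septin1, Sh2d2a and Znrf1 at least 1 other IL-13 array reads lower than IL-13 18.

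Among the lower members, 27 of 42 probe sets lay below all 4 other arrays, 6 of them at least 2-fold. Their choice below both saline arrays in part fixed these counts. The share of all probe sets below all 4 by any margin was not counted. Under the narrower rule that all 4 other arrays lie above the median, 4 probe sets were at least 2-fold below all 4, which is 0.0322% of all 12422. Crat, the acetyltransferase that makes acetylcarnitine, had the largest fold and read 753.5 on saline 6 and 572.4 on saline 48, then 80.17 on IL-13 18 against 700.9 and 271.4 on IL-13 6 and IL-13 48. Its second, brighter probe set did not share this pattern and read 2906, 2096, 2079, 2633 and 1904. Znrf1 read 830.1 and 1305 with saline, 137.4 on IL-13 18, and 733.7 and 119.7 on IL-13 6 and IL-13 48. Another probe set of Znrf1 read 1023 and 911.4 with saline and 892.3 on IL-13 18. A dimmer set of the gene had the first direction, at 221.3 and 365.9 with saline and 87.13 on IL-13 18. Tgfb1, the growth factor TGF-beta 1, read 568.1 and 438.1 with saline, 82.19 on IL-13 18, and 248.8 and 154.6 on IL-13 6 and IL-13 48. All IL-13 arrays lay below saline, IL-13 18 lowest, 5.33-fold below the nearer saline array (log2 difference -2.60, SE 0.38, limma adjusted p 0.363). Slc19a1, the reduced folate carrier, read 511.3 and 358.4 with saline, 76.88 on IL-13 18, and 284.7 and 329.4 on IL-13 6 and IL-13 48, but its other probe set had IL-13 18 (477.3) between the saline arrays. Prp2, a proline-rich protein of saliva, read 6215 on saline 6 and 988.1 on saline 48, then 182.4 on IL-13 18 against 944.2 and 1824 on IL-13 6 and IL-13 48. Its saline values lay further apart than IL-13 18 lay from saline 48, and a second probe set had IL-13 18 (281.4) between them.

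Some of the other lower members are genes known from lymphocytes and other leukocytes. Ltb, the membrane lymphotoxin of lymphocytes, read 2393 and 1269 with saline, 438.6 on IL-13 18, and 675.9 and 497.4 on IL-13 6 and IL-13 48. Sh2d2a, a T cell adapter, read 819.2 and 600.5 with saline, 159.9 on IL-13 18, and 134.9 and 127.6 on IL-13 6 and IL-13 48. Mast3, a kinase, read 445.1 and 347.3 with saline, 79.62 on IL-13 18, and 88.47 and 83.83 on IL-13 6 and IL-13 48. In all of these the IL-13 arrays lay together below both saline arrays, and the limma adjusted p of IL-13 18 against saline ran from 0.332 (Mast3) to 0.626 (Ltb). Ptpn22, the phosphatase that restrains T cell receptor signalling, read 1084 and 909.6 with saline, 304.6 on IL-13 18, and 532.1 and 490.0 on IL-13 6 and IL-13 48. Cd53, a tetraspanin of leukocytes, read 1603 and 790.1 with saline, 295.5 on IL-13 18, and 567.7 and 439.4 on IL-13 6 and IL-13 48. For these 2 genes IL-13 18 was the lowest array. Zap70, the kinase of the T cell receptor, read 366.7 and 451.5 with saline and 109.3 on IL-13 18 on one probe set, while its brightest set read 1462 and 1356 with saline and 1033 on IL-13 18.

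T cell and natural killer cell genes lay below both saline arrays for 16 of 23 measured, and above both for 2, Lat and Gzma (25.1% and 34.3% of all genes). At least 2-fold below were 4, Sh2d2a, Cd3g, Cd3d and Cd3e (8 without saline 6 and 5 without saline 48), where 0.388% of all genes were. The median log2 difference was -0.67 for IL-13 18, -1.44 for IL-13 6 and -1.44 for IL-13 48. Cd3g, which encodes the gamma chain of CD3, read 913.0 and 793.7 with saline, 325.1 on IL-13 18, and 169.9 and 168.3 on IL-13 6 and IL-13 48. Cd3d read 728.9 and 918.4 with saline, 316.8 on IL-13 18, and 171.1 and 175.6 on IL-13 6 and IL-13 48. Cd3e read 1911 and 1804 with saline, 843.2 on IL-13 18, and 415.0 and 107.7 on IL-13 6 and IL-13 48. In all 3 chains IL-13 18 lay between the saline arrays and the other IL-13 arrays, with log2 differences from saline of -1.39 (SE 0.25), -1.37 (SE 0.27) and -1.14 (SE 0.77) and limma adjusted p-values of 0.504, 0.567 and 0.866. From IL-13 6 and IL-13 48, IL-13 18 differed by 0.94 for Cd3g and 0.87 for Cd3d, neither of which passed limma.

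Among genes of immature thymocytes, the coreceptor Cd8a and the polymerase Dntt lay near saline on IL-13 18, while Cd8b1 lay further below it. Cd8a read 1210 and 1698 with saline, 1153 on IL-13 18, and 224.7 and 310.9 on IL-13 6 and IL-13 48. Dntt, which adds bases at receptor gene joins, read 1554 and 2030 with saline, 1722 on IL-13 18, and 501.2 and 575.6 on IL-13 6 and IL-13 48. The thymocyte marker Cd8b1 read 1948 and 2888 with saline, 989.8 on IL-13 18, and 635.4 and 182.9 on IL-13 6 and IL-13 48. For the marker Rag1, one probe set read 1010 and 1589 with saline, 757.2 on IL-13 18, and 248.8 and 142.8 on IL-13 6 and IL-13 48. Another set of Rag1 read 531.9 and 756.3 with saline and 898.9 on IL-13 18. Over the thymocyte list, 2 of 13 lay above and 4 below both saline arrays (15.4% and 30.8%, where all genes gave 34.3% and 25.1%). The median was -0.24, with 0.13 without saline 48 and -0.54 without saline 6. B cell and plasma cell genes lay below both for 8 of 16 and above for 1 (median -0.73, -0.06 without saline 6 and -1.47 without saline 48). Cd79a, a chain of the B cell receptor, shows the spread of the saline arrays, at 2126 on saline 6 and 277.5 on saline 48, then 127.1 on IL-13 18 against 527.7 and 782.9 on IL-13 6 and IL-13 48.

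Glucocorticoid targets and metallothioneins had 10 of 18 below and 2 above both saline arrays (25.1% and 34.3% of all genes). At least 2-fold below were 2, Fkbp5 and Zbtb16 (4 without saline 48), where 0.388% of all genes were. The median log2 difference was -0.23. Fkbp5, a chaperone of the glucocorticoid receptor, read 3539 and 2836 with saline, 1383 on IL-13 18, and 2925 and 903.4 on IL-13 6 and IL-13 48. Zbtb16, a zinc finger repressor, read 3878 and 2496 with saline, 1038 on IL-13 18, and 3893 and 1203 on IL-13 6 and IL-13 48. For both, IL-13 6 read like saline and IL-13 18 like IL-13 48. Ddit4, an inhibitor of mTOR that glucocorticoids induce, had the same order, at 2196 and 2733 with saline, 929.5 on IL-13 18, and 1991 and 1098 on IL-13 6 and IL-13 48. Circadian clock genes had 7 of 17 below and 2 above both saline arrays (median -0.27, and -0.12 without saline 6), and the saline arrays differed between themselves: Per2 read 573.3 on saline 6 and 189.4 on saline 48, then 159.6 on IL-13 18 against 542.2 and 129.4 on IL-13 6 and IL-13 48. Arntl, the partner of CLOCK, ran opposite, at 279.1, 828.3, 855.1, 218.8 and 807.2 in that order. Fat genes lay below both for 11 of 15 (median -0.73, -0.27 without saline 6 and -1.23 without saline 48), with Cidec, a lipid droplet protein, at 1599 on saline 6 and 588.1 on saline 48, then 326.8 on IL-13 18 against 684.7 and 340.1 on IL-13 6 and IL-13 48. Cyp2e1, the ethanol-oxidising cytochrome, read 3538 and 4182 with saline, 1434 on IL-13 18, and 2844 and 1882 on IL-13 6 and IL-13 48.

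Most cell cycle and matrix genes lay above both saline arrays by less than 2-fold. Of 33 cell cycle and DNA replication genes, 24 lay above and 2 below both saline arrays (34.3% and 25.1% of all genes). The median log2 difference was 0.35 for IL-13 18, 0.08 for IL-13 6 and 0.17 for IL-13 48. At least 2-fold above was 1, the mitotic kinase gene Aurkb (2 without saline 6), where 0.654% of all genes were. Aurkb read 81.92 and 201.9 with saline, 418.7 on IL-13 18, and 285.9 and 562.8 on IL-13 6 and IL-13 48. Rrm2, a subunit of ribonucleotide reductase, read 305.1 and 275.1 with saline, 537.0 on IL-13 18, and 296.7 and 403.2 on IL-13 6 and IL-13 48. Of 32 collagen and matrix genes, 23 lay above and 6 below (median 0.36), 0 of them 2-fold (3 above without saline 48 and 1 without saline 6). Serpinh1, the collagen chaperone, read 2409 and 3278 with saline, 4853 on IL-13 18, and 4141 and 5339 on IL-13 6 and IL-13 48, while Col1a1 read 13730 and 10030 with saline and 9544 on IL-13 18.

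**Figure D5:**
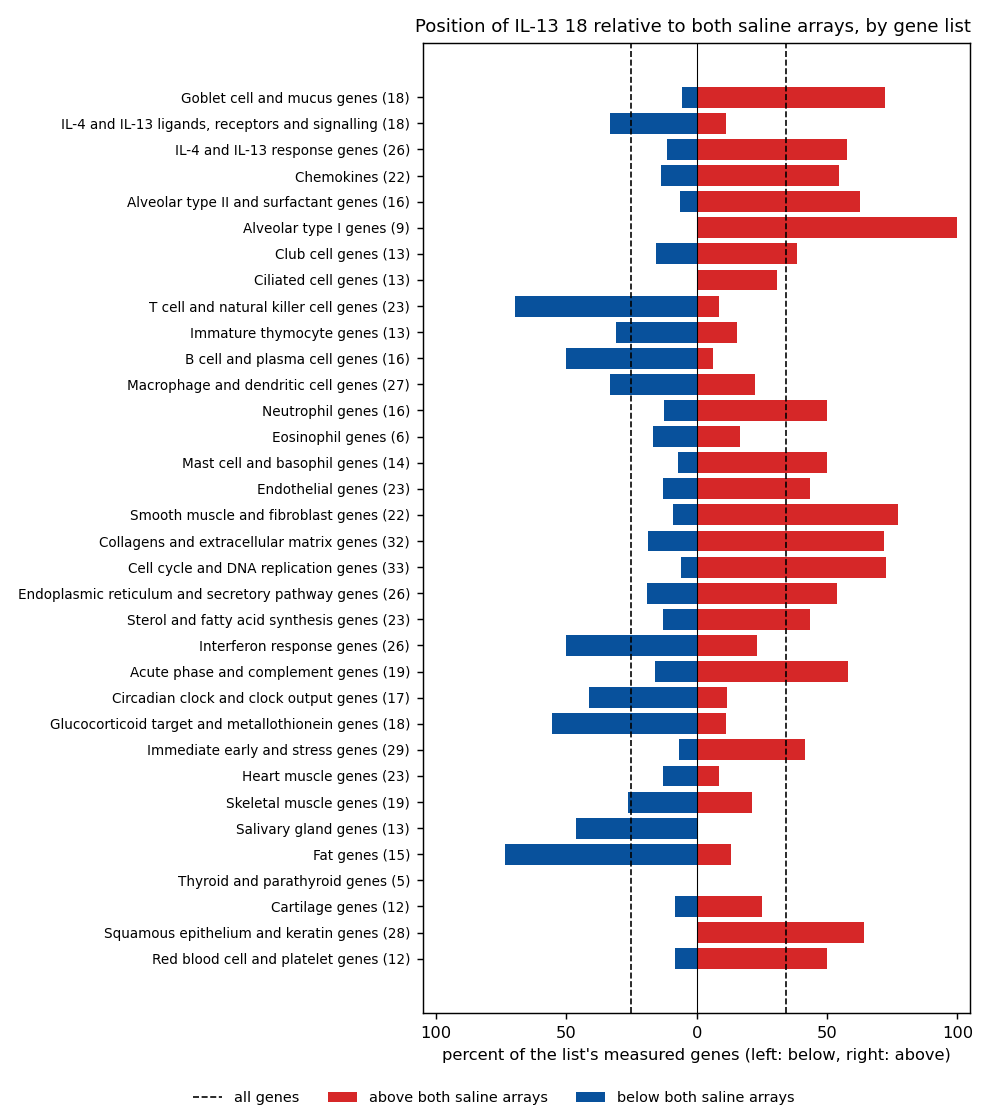
Share of the measured genes of each list (number in parentheses) for which IL-13 18 lay above both saline arrays (red, to the right) or below both (blue, to the left), in percent. Dashed lines mark all genes, 34.3% above and 25.1% below. The alveolar type I, smooth muscle and fibroblast, cell cycle, goblet and matrix lists reach over 70% above, and the fat list over 70% below.

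Some members rest on a single probe set among several. Akap8, a nuclear anchoring protein, appeared in both directions: one probe set read 201.7 and 206.9 with saline and 460.5 on IL-13 18, and another 931.6 and 1186 with saline and 361.5 on IL-13 18. Probe sets whose name endings mark shared or relaxed probes were 23 of the 74 higher and 7 of the 42 lower members, and 22.6% of all probe sets. The saline arrays themselves lay at least 2-fold apart for 13 of the 74 and 2 of the 42, and for 7.43% of the probe sets tested.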

How the data were processed

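Total RNA labelled murine lung was measured on 5 Affymetrix arrays. The deposited table gives 1 intensity per probe set and array, on a linear scale, that the authors had scaled to a 2% trimmed mean of 800.39 to 800.47, judged from the values. The software behind them is not given in the sources used here. Of 12488 probe sets, 66 controls were left out. GEO's platform annotation gave 1 symbol for 10833 of the remaining 12422, several for 396 and none for 1193, and 10817 symbols were updated through the RefSeq gene table. Probe sets with several symbols name no gene.

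Each array was rescaled to 1 shared trimmed mean, floored at 55.28 and put on a log2 scale. Those brighter than 210.2, the 40th percentile of all values, on IL-13 18 or a saline array were tested by limma 3.58.1 (lmFit, eBayes; R 4.3.3) over 3 groups (saline, IL-13 18, and IL-13 6 with IL-13 48), two-sided, with Benjamini-Hochberg adjustment over all 8064 and a threshold of 0.05. IL-13 18 is 1 array, so its spread is taken from the other groups (2 residual and 3.259 prior degrees of freedom). Within each of those groups the arrays differ in number. SE is limma's moderated standard error. The number of arrays limits the precision. The fit was tested on simulated data.

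The members, the 34 gene lists and the tests were chosen with earlier results of these data known. The NKX2-1 motif was added after the values were seen. Genes were drawn by rule, and only part of the genes that the rule covers are named in the text. It covers the 15 largest increases and decreases beyond both saline arrays at 2-fold, and those furthest from all 4 other arrays. Up to 5 genes of each list, any gene of the goblet, IL-13, alveolar and clock lists, and defining markers are also covered. Cd8a, Col1a1, Cyp2e1, Ddit4, Enpep, Gzma, Lat, Lcn2, Sct, Septin4 and Slc39a8 were named after their values were seen. In lists, the probe set with the highest mean stands for a gene. Alternatives changed the normalization, floor, filter, variance setting, fold and brightness limits and left out each array. Figures were drawn with matplotlib 3.10.9.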

Additional observations from a re-analysis of the deposited data

Results flagged for a closer look

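For 6 of the 74 higher probe sets, IL-13 18 lay above both saline arrays while IL-13 6 and IL-13 48 both lay below both. The share of all probe sets with this order was not counted. For Actl7b, Sftpb and both probe sets of Mmp12, IL-13 6 and IL-13 48 read under the filter of 210.2. Lying below saline there rests on dim values, such as 71.28 on IL-13 6 against 75.59 on saline 48 for Actl7b. Inmt and Septin4 were brighter on those arrays. The difference of IL-13 18 from those IL-13 arrays was tested with limma over all probe sets, and none passed. Mmp12 gave a log2 difference of 3.82 (adjusted p 0.338) on one probe set and 2.82 (0.301) on the other. Sftpb gave 4.79 (0.359), Inmt 2.64 (0.301), Actl7b 2.40 (0.301) and Septin4, a filament protein, 1.52 (0.691). Septin4 read 391.2 and 405.0 with saline, 859.9 on IL-13 18, and 319.4 and 282.8 on IL-13 6 and IL-13 48, while a dimmer probe set read 77.6 and 33.23 with saline, 171.7 on IL-13 18, and 41.68 and 112.1 on IL-13 6 and IL-13 48. Beside these values, the heart transcript Myh6 read 3986 on saline 6 and 133.2 on saline 48, then 1391 on IL-13 18 against 208.1 and 100.3 on IL-13 6 and IL-13 48. Its part in the result was not tested. No group held enough arrays to look for a single array apart from its group.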

How the results depend on the processing

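No paired analysis was possible because no saline array carries the number 18. No probe set passed limma for IL-13 18 against saline or against the other IL-13 arrays with quantile normalization, no rescaling, scaling on bright probe sets, other floors, stricter filters, trend and robust settings or, for saline, the 3 arrays alone. With no filter, which tests all 12422 probe sets and so adds the dim ones, 22 passed in each comparison (lowest adjusted p 0.049 and 0.0487). Leaving out single arrays gave 0 to 7 against saline, the 7, all lower, without saline 48, and 0 against the other IL-13 arrays. The cause was not tested. The counts of 74 higher and 42 lower probe sets became 263 and 172 at 1.5-fold, 26 and 12 at 3-fold, 114 and 71 with the brightness limit at the 40th percentile, and 210 and 115 with no such limit. They ranged from 64 to 78 and from 35 to 50 with other normalizations and floors. Without a saline array they were 151 to 265 higher and 113 to 271 lower. For 106 genes followed under all alternatives, not all of them named in the text, 1451 of 1454 values kept their direction. The exceptions were Stat6 (0.00 with quantile normalization, 0.31 without saline 48, -0.33 without saline 6) and Dntt (0.15 and -0.24). List medians changed sign without saline 48 for immature thymocytes (0.13, and -0.54 without saline 6) and heart (-0.42 and 0.65), and without saline 6 for skeletal muscle (0.09, and -0.16 without saline 48), thyroid (-0.45 and 0.31) and cartilage (-0.34 and 0.41). Signal near the floor limits genes such as Muc5ac and Il13ra2.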

Other observations

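Over all genes, 34.3% lay above and 25.1% below both saline arrays. The shares above of the sterol (43.5%) and immediate early (41.4%) lists lay near the first. Endoplasmic reticulum and secretion genes lay above both saline arrays on IL-13 18 for 14 of 26 and below for 5 (median log2 difference 0.19, and 0.11 without saline 6). Dnajc3, a chaperone that restrains the kinase PERK, read 792.0 and 1509 with saline, 2069 on IL-13 18, and 1594 and 2342 on IL-13 6 and IL-13 48, above saline on every IL-13 array. Trib3, a pseudokinase of the stress response, read 324.0 and 276.2 with saline, 153.8 on IL-13 18, and 223.2 and 134.5 on IL-13 6 and IL-13 48. Sterol and fatty acid synthesis genes were above for 10 of 23 and below for 3 (median 0.06, with 0.12 without saline 48 and 0.27 without saline 6). Fdps, of the mevalonate pathway, read 1370 and 1319 with saline, 2282 on IL-13 18, and 1990 and 1921 on IL-13 6 and IL-13 48, with no overlap of treatments. Interferon response genes were below for 13 of 26 and above for 6 (median -0.17, with -0.29 without saline 48 and -0.07 without saline 6). Psmb8, an immunoproteasome subunit, read 2887 and 2077 with saline, 1398 on IL-13 18, and 1639 and 1369 on IL-13 6 and IL-13 48. Immediate early and stress genes were above for 12 of 29 and below for 2 (median 0.21), with Atf3, a stress transcription factor, at 309.2 and 363.2 with saline, 760.0 on IL-13 18, and 547.6 and 587.9 on IL-13 6 and IL-13 48 and Ier3 also at least 2-fold above both.

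The counts that follow stand beside the 34.3% above and 25.1% below of all genes. The ciliated list (30.8% above) and the skeletal muscle list (26.3% below) lay near these shares. Mast cell and basophil genes were above both saline arrays for 7 of 14 and below for 1 (median 0.11, with 0.04 without saline 48 and 0.18 without saline 6). Kit, the stem cell factor receptor, read 355.8 and 529.7 with saline, 936.0 on IL-13 18, and 527.9 and 764.3 on IL-13 6 and IL-13 48, but the mast cell protease gene Cma1 had IL-13 18 (250.1) between the saline arrays (309.2 and 163.8). Acute phase and complement genes were above for 11 of 19 and below for 3 (median 0.31), red cell and platelet genes above for 6 of 12 and below for 1 (0.48, and 0.20 without saline 48), and ciliated cell genes above for 4 of 13 and below for 0 (0.13, and 0.33 without saline 48). Of the neighbouring tissues, heart genes were above for 2 of 23 and below for 3 (0.16), skeletal muscle genes above for 4 and below for 5 of 19 (-0.03), cartilage genes above for 3 and below for 1 of 12 (0.09), thyroid and parathyroid genes above or below for 0 of 5 (0.06) and salivary gland genes above for 0 and below for 6 of 13 (-3.06, with -5.74 without saline 48 and 0.00 without saline 6).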
